A study of Mus musculus with 32 samples.

Results

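The 10 genes described here are metallothioneins and enzymes of antioxidant defense, namely Mt1, Mt2, Hmox1, Nqo1, Gclc, Srxn1, Txnrd1, Gpx1, Sod1 and Sod2. They were picked by gene name, each name matched a single row among the 24952 genes of the deposited tables, and all 10 were among the 13990 genes that passed the filter on low counts. Metallothioneins are small cysteine-rich proteins that bind zinc and copper and can scavenge radicals, and their genes respond to metals through the transcription factor MTF-1, to glucocorticoids and to oxidative stress. The antioxidant enzymes convert superoxide to peroxide, reduce peroxides, or supply and recycle the glutathione and thioredoxin used for that, and several of their genes are known targets of the transcription factor NRF2. In skeletal muscle, which produces reactive oxygen species during contraction, these proteins are studied in disuse, denervation and aging.

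The study asked how synaptic and extra-synaptic regions of aging muscle differ in their transcripts. Neuromuscular junction regions (NMJ) and regions away from them (xNMJ) were cut by laser from cross sections of the tibialis anterior, a hindlimb muscle, after labeling of acetylcholine receptors with α-bungarotoxin. Polyadenylated RNA was sequenced in 32 libraries, of which 8 came from NMJ (10m NMJ) and 8 from xNMJ regions (10m xNMJ) of mice aged 10 months, and as many from those of mice aged 30 months (30m NMJ and 30m xNMJ). All animals were male wild-type C57BL/6JRj mice, caged singly and given the diet AIN93M, the younger ones for 2 to 3 months and the older ones for 16 months, so that time on the diet and age cannot be told apart. Each library holds the RNA of many captured areas, and the sample labels do not say whether an NMJ and an xNMJ library with the same number came from one mouse. Nothing in the labels ties libraries to separate mice either, and the p-values therefore measure the spread between these libraries. A captured area includes several cell types, so fewer cells of a type and less RNA per cell cannot be told apart.

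Libraries held 4026648 to 16516788 counts. Median totals were 6062117 and 6790011 in the younger and older xNMJ groups and 9605869 and 9825357 in the NMJ groups. A floor of 3 counts corresponded to 0.182 to 0.745 CPM, where CPM are a gene's counts scaled to a common library total, from here on with TMM factors. Muscle fiber genes were abundant in every library. The summed TPM, which are scaled for transcript length as well, of 8 such genes had group medians of 65730 to 71020, with the troponin gene Tnnt3 the most abundant. The captured regions went with their labels, since the summed TPM of 9 synaptic genes was 1121 to 2285 in 10m NMJ and 1770 to 2543 in 30m NMJ, against 21.9 to 55.3 in 10m xNMJ. In 30m xNMJ, replicate 5 stood apart at 285.7 TPM, while the group median was 26.5. The insert size of 10m NMJ replicate 8 was 52 nucleotides, against a group median of 117.5. Counts of calls are given below also without these 2 libraries. A further library, 30m xNMJ replicate 2, had the fewest detected genes of the 32 (13159) and a summed TPM of 6 red cell genes of 29580, against a group median of 7834, and the calls among the 10 genes that changed without it are given below.

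Mt1, Mt2 and the related Mt3 lie in one cluster on chromosome 8 of the mouse genome (GRCm38), all on the plus strand. Mt3 spans 94152607 to 94154146, Mt2 spans 94172664 to 94173568 and Mt1 spans 94179082 to 94180327. Their upstream sequences are shown because these neighbors differed widely in level and only Mt3 passed between regions in edgeR, as described below. The part of these sequences in that was not tested. The sequences come from RefSeq (GRCm38.p6), run 5′ to 3′ on the plus strand and end before both the RefSeq and the GENCODE start of each gene. Capitals mark the core of the metal response element bound by MTF-1, written TGCACNC or TGCGCNC and searched on both strands, so that the last marked stretch of Mt2 reads on the minus strand.
Mt1, chr8:94178839-94179081: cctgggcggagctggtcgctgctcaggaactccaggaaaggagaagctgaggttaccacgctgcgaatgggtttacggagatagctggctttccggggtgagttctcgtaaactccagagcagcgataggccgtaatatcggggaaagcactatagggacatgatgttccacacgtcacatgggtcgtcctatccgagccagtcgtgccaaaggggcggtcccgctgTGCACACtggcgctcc
Mt2, chr8:94172368-94172617: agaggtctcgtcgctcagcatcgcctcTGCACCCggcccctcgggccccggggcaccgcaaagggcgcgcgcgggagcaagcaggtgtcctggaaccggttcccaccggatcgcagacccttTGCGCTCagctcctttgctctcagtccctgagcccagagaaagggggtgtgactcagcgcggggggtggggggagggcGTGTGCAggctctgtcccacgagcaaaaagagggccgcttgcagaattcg
Mt3, chr8:94152357-94152606: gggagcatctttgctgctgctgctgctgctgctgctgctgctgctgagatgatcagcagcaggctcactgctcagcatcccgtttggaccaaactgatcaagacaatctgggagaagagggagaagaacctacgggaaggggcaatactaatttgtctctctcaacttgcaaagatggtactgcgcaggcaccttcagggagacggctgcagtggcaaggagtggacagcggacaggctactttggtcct
Over the full window of 300 bases around the RefSeq start, these letters occurred 3 times for Mt1, 4 times for Mt2 and 1 time for Mt3. The printed stretches hold 1, 3 and 0 of these, and the others reach past the printed ends. The marked letters alone therefore do not compare the 3 genes. At least 1 match was found in 25.7% of 32851 mouse promoters of this length, and 3 or more in 1.97%. Such a match is a description of letters and not of binding. Promoter entries were found for 8 of the 10 genes, all but Hmox1 and Gclc. The core of the antioxidant response element, TGACNNNGC on either strand, was present in the windows of Mt2, Srxn1 and Sod1 and in 1 of 3 windows of Txnrd1, and in 12.4% of all promoters.

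Levels between genes were compared in TPM. Sod1, the cytosolic copper- and zinc-dependent superoxide dismutase, had the highest median of the 10 genes in every group, from 374.9 TPM in 10m xNMJ to 668.1 TPM in 10m NMJ. Gpx1, a glutathione peroxidase, Mt1 and Sod2, the mitochondrial superoxide dismutase, came next in 10m xNMJ, at medians of 87.5, 79.0 and 84.1 TPM with SDs of 31.9, 27.9 and 19.5 TPM, so that these neighbors did not differ beyond their spread. In 30m NMJ their medians were 189.7, 280.8 and 71.6 TPM. Txnrd1, the cytosolic thioredoxin reductase, Srxn1, which repairs oxidized peroxiredoxins, and Nqo1, a quinone reductase, had medians between 4.16 and 20.8 TPM. Gclc, which encodes the catalytic subunit of the rate-limiting enzyme of glutathione synthesis, and Hmox1, the inducible heme oxygenase, were lowest, at medians of 0.932 to 2.48 TPM and 0.123 to 2.78 TPM. The medians of Mt2 differed most of the 10 genes as a ratio, from 1.82 and 20.4 TPM in the younger and older xNMJ groups to 22.3 and 122.8 TPM in the NMJ groups.

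**Figure D1:**
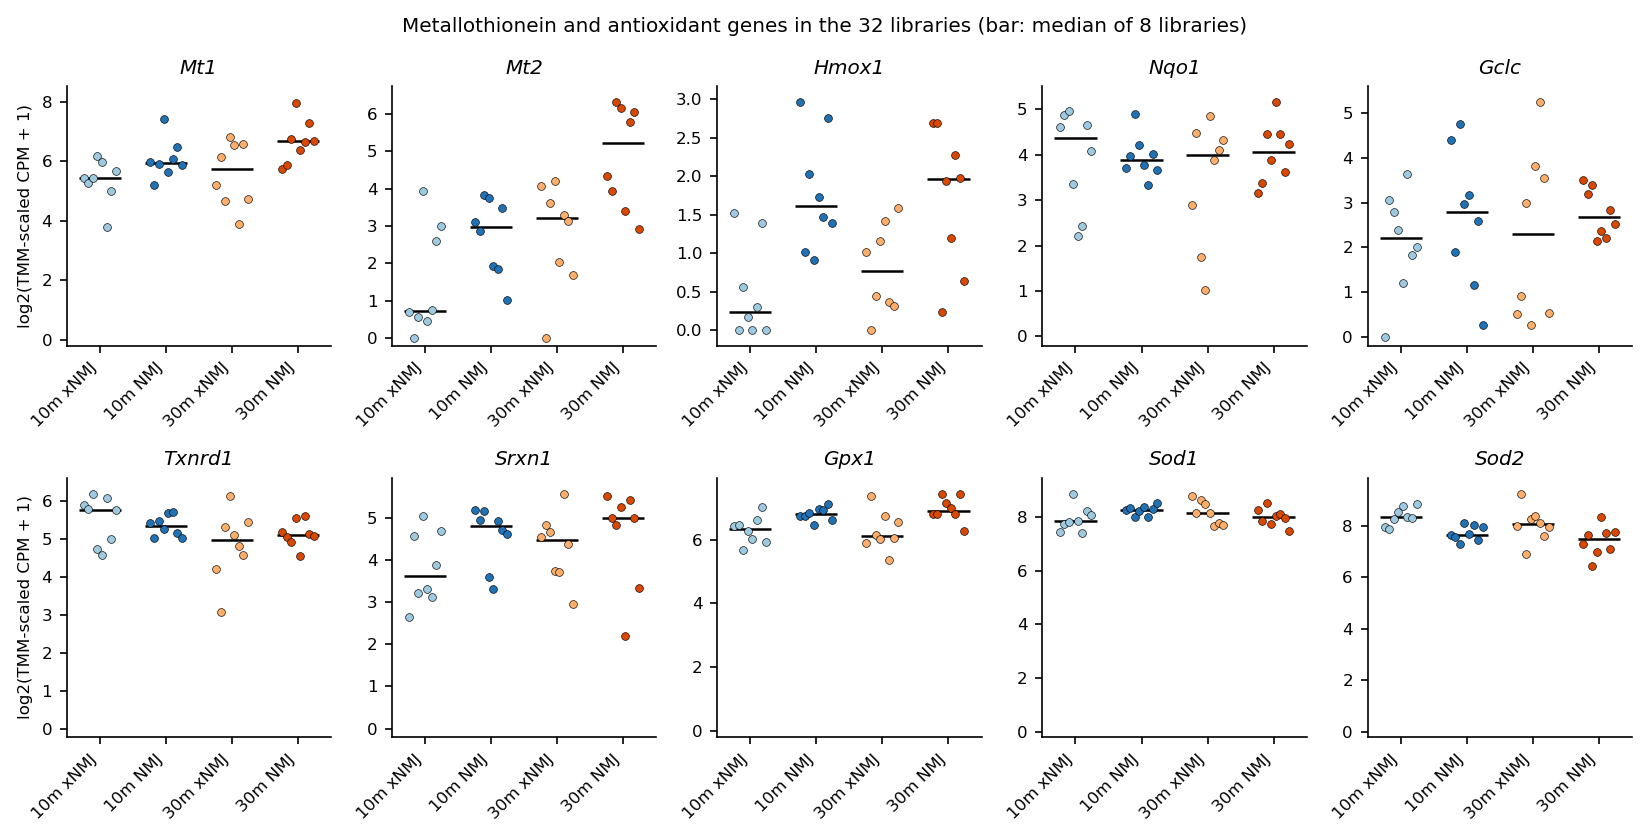
Each point is 1 library, on the y axis as log2 of CPM scaled with TMM factors plus 1, and each bar is the median of the 8 libraries of a group on the x axis. Mt2 spans from 0 in single xNMJ libraries to 77.9 CPM in 30m NMJ, Hmox1 stays below 7 CPM, and the groups overlap for every gene.

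Regions were first compared at 10 months, on counts scaled with TMM factors. None of the 10 genes passed an adjusted p of 0.05 in edgeR, while 11.5% of all genes tested did. At an unadjusted p under 0.05 there were 3 of the 10 genes, Hmox1, Gpx1 and Sod2, and 22.8% of all genes. DESeq2 called 1 of the 10, Hmox1, and 14.6% of all genes. Of the 10 log2 fold changes 7 were above 0, with a median of 0.56, against a median of 0.00 and 50.2% above 0 over all genes. Without the 2 libraries named above, edgeR again called 0 of the 10, against 11.3% of all genes tested.

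At 30 months edgeR again called none of the 10 genes, against 9.26% of all genes tested. At an unadjusted p under 0.05 there were 5 of the 10, Mt1, Mt2, Hmox1, Gpx1 and Sod2, and 20.7% of all genes. DESeq2 called 1, Mt2, and 12.2% of all genes. Of the log2 fold changes 7 were above 0, with a median of 0.37, against −0.01 and 49.3% above 0 over all genes. The groups of each of the 10 genes overlapped at both ages, whereas 2.22% of all genes were higher and 1.19% lower at the NMJ without overlap at 10 months, and 1.96% and 0.5% at 30 months. The count in edgeR was 0 also without the 2 libraries named above, against 10.5% of all genes tested. With single libraries left out it lay between 0 and 2 at either age. Of all genes tested, 10.2% to 12.2% passed in those fits at 10 months and 7.93% to 10.6% at 30 months.

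Among the metallothioneins, Mt1 had lowest, median and highest values of 12.97, 42.2 and 70.7 CPM in 10m xNMJ and of 36.0, 61.0 and 171.1 CPM in 10m NMJ. In 30m xNMJ these were 13.7, 53.0 and 112.7 CPM, and in 30m NMJ 52.6, 100.6 and 250.3 CPM. Groups overlapped at both ages, and 7 of 8 NMJ libraries lay above the xNMJ median at each. The log2 fold change of Mt1, NMJ against xNMJ, was 0.76 ± 0.38 (SE) at 10 months (adjusted p = 0.24, edgeR; 0.46 without 10m NMJ replicate 4) and 0.95 ± 0.39 at 30 months (adjusted p = 0.13). Over 10 alternatives the adjusted p of Mt1 had a range of 0.016 to 0.45 at the younger age and of 8.95e-04 to 0.19 at the older.

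Mt2 was close to the floor in much of the young extra-synaptic muscle, where 5 of 8 libraries had at most 3 counts. Its lowest, median and highest values were 0, 0.658 and 14.4 CPM in 10m xNMJ and 1.02, 6.89 and 13.2 CPM in 10m NMJ. All 8 NMJ libraries lay above the xNMJ median and none above its highest library, and the log2 difference was 0.92 ± 0.76 (adjusted p = 0.52, edgeR). It was 1.72 without 10m xNMJ replicate 4 and lay between 0.47 and 2.68 over the alternatives, with adjusted p of 0.042 to 0.84 and a call only on log2(TPM + 1). At 30 months the values were 0, 8.22 and 17.6 CPM in xNMJ and 6.53, 36.6 and 77.9 CPM in NMJ. Mt2 then had a log2 fold change of 2.26 ± 0.78 (adjusted p = 0.062), the largest of the 10 genes at that age, and 5 of 8 NMJ libraries exceeded the highest xNMJ library. Mt2 at 30 months sat near the threshold, as 6 of 10 alternatives gave an adjusted p below 0.05, over a range of 0.0034 to 0.18, and so did 4 of 32 fits with a library left out (10m xNMJ replicates 2 and 4 and 30m NMJ replicates 5 and 8).

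Hmox1, which breaks down heme to biliverdin, carbon monoxide and iron, had the largest log2 fold change of the 10 genes at 10 months on TMM-scaled counts, while on log2(TPM + 1) the value of Mt2 was larger (1.99 against 1.31). It had at most 3 counts in 6 of 8 libraries of 10m xNMJ, where its lowest, median and highest values were 0, 0.178 and 1.87 CPM. In 10m NMJ they were 0.879, 2.05 and 6.82 CPM, and all 8 libraries lay above the xNMJ median. Its log2 fold change was 2.43 ± 0.84 (adjusted p = 0.055, edgeR), and 5 of 10 alternatives passed the threshold, with adjusted p from 0.0019 to 0.093. It also passed in 4 of 32 fits with a library left out (10m xNMJ replicates 1 and 7, 30m xNMJ replicate 2 and 30m NMJ replicate 3). At 30 months the values were 0, 0.696 and 2.01 CPM in xNMJ and 0.173, 2.89 and 5.48 CPM in NMJ, and 5 of 8 NMJ libraries exceeded the highest xNMJ library (1.69 ± 0.81 on the log2 scale, adjusted p = 0.22).

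The peroxide- and superoxide-handling enzymes followed. Gpx1 had lowest, median and highest values of 50.6, 79.9 and 130.3 CPM in 10m xNMJ and 86.4, 110.0 and 138.3 CPM in 10m NMJ. At 30 months they were 40.5, 67.8 and 166.2 CPM in xNMJ and 76.5, 119.3 and 171.7 CPM in NMJ, and at both ages every NMJ library lay above the xNMJ median. For Gpx1 the log2 fold change was 0.45 ± 0.22 at 10 months (adjusted p = 0.21, edgeR) and 0.62 ± 0.22 at 30 months (adjusted p = 0.076). Gpx1 passed at 30 months without 30m xNMJ replicate 2, its highest library in that group (0.84, adjusted p = 0.0063), and without 30m NMJ replicate 8 (0.70, adjusted p = 0.044).

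Sod2 went the other way on this scale. Its lowest, median and highest values were 229.4, 317.6 and 461.8 CPM in 10m xNMJ and 155.0, 199.9 and 273.4 CPM in 10m NMJ, where no library reached the xNMJ median. At 30 months they were 117.9, 263.5 and 594.6 CPM in xNMJ and 85.7, 175.9 and 319.2 CPM in NMJ, where 1 library exceeded the xNMJ median. The log2 difference of Sod2 was −0.66 ± 0.24 at 10 months (adjusted p = 0.077, edgeR) and −0.68 ± 0.24 at 30 months (adjusted p = 0.076), the latter −0.45 (adjusted p = 0.27) without 30m xNMJ replicate 2, the library highest in red cell genes, which held the highest Sod2 value. Sod2 passed at 10 months with that library out of the fit (adjusted p = 0.041), and at 30 months without 30m xNMJ replicate 3 (−0.80, adjusted p = 0.023) or 30m NMJ replicate 5 (−0.85, adjusted p = 0.019). In TPM the log2 fold change of Sod2 was −0.19 at 10 months and −0.05 at 30 months. Of the stretches of 31 bases in Sod2 transcripts, 3.45% also occur in other protein-coding genes, so a small part of its reads could have been shared.

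Sod1 did not pass on TMM-scaled counts. It ranged from 170.4 to 461.8 CPM around a median of 227.5 in 10m xNMJ and from 252.5 to 364.9 CPM around 309.1 in 10m NMJ (0.26 ± 0.19 on the log2 scale, adjusted p = 0.45, edgeR), or 0.44 without 10m xNMJ replicate 4. In TPM the log2 difference at 10 months was 0.78 (adjusted p = 4.04e-04, limma), with adjusted p of 3.67e-04 to 0.58 over the alternatives. At 30 months the log2 fold change was −0.20 ± 0.19 on TMM-scaled counts (adjusted p = 0.62) but 0.42 in TPM, and −0.10 without 30m xNMJ replicate 1, and its direction at that age depended on the scaling.

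Among the genes often used as NRF2 readouts, Nqo1, Gclc, Txnrd1 and Srxn1 did not pass in edgeR on TMM-scaled counts. Nqo1 had group medians of 13.7 to 19.7 CPM and log2 fold changes of −0.19 ± 0.47 and 0.34 ± 0.47 at 10 and 30 months, the former above 0 in TPM. With single libraries left out these lay between −0.39 (10m NMJ replicate 3) and −0.037 (10m xNMJ replicate 3) and between 0.11 (30m NMJ replicate 5) and 0.58 (30m xNMJ replicate 5). Txnrd1 had medians of 30.4 to 53.8 CPM and log2 fold changes of −0.25 ± 0.29 and 0.11 ± 0.29, the former also above 0 in TPM and −0.14 without 10m xNMJ replicate 3, the latter −0.043 without 30m xNMJ replicate 2 and 0.36 without 30m xNMJ replicate 4. Srxn1 lay at medians of 11.3 and 27.1 CPM in 10m xNMJ and 10m NMJ and of 21.2 and 30.7 CPM in the old groups, with log2 fold changes of 0.67 ± 0.43 and 0.40 ± 0.43, the latter 0.26 without 30m xNMJ replicate 8 and 0.66 without 30m xNMJ replicate 6. Gclc ranged from 0 to 37.0 CPM, with log2 fold changes of 0.97 ± 0.82 and −0.47 ± 0.81, the former 0.48 without 10m NMJ replicate 3, the latter above 0 in TPM and 0.41 once 30m xNMJ replicate 6 was left out. Their adjusted p-values in edgeR lay between 0.37 and 0.89.

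The number of the 10 genes that passed differed between scales and models. TMM factors had medians of 0.831 and 0.765 in the xNMJ groups and 1.21 and 1.25 in the NMJ groups, and without them most genes appeared higher at the NMJ. On log2(TPM + 1), tested with limma, the median over all genes was 0.37 at 10 months and 0.49 at 30 months. On that scale 5 of the 10 genes passed at 10 months (Mt1, Mt2, Hmox1, Gpx1 and Sod1), against 20.9% of all genes, and 6 at 30 months (the same 5 and Txnrd1), against 25.5%, all higher at the NMJ. Mt1 had log2 fold changes of 1.196 and 1.70 in TPM at 10 and 30 months, and Gpx1 of 1.002 and 1.33, above the shift of all genes, whereas Sod1 at 30 months lay below it. Scaling by library totals alone, an alternative added after the data had been seen, called 5 and 3 of the 10 genes, against 20.6% and 19.8%, with a median over all genes of 0.56 and 0.61.

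**Figure D2:**
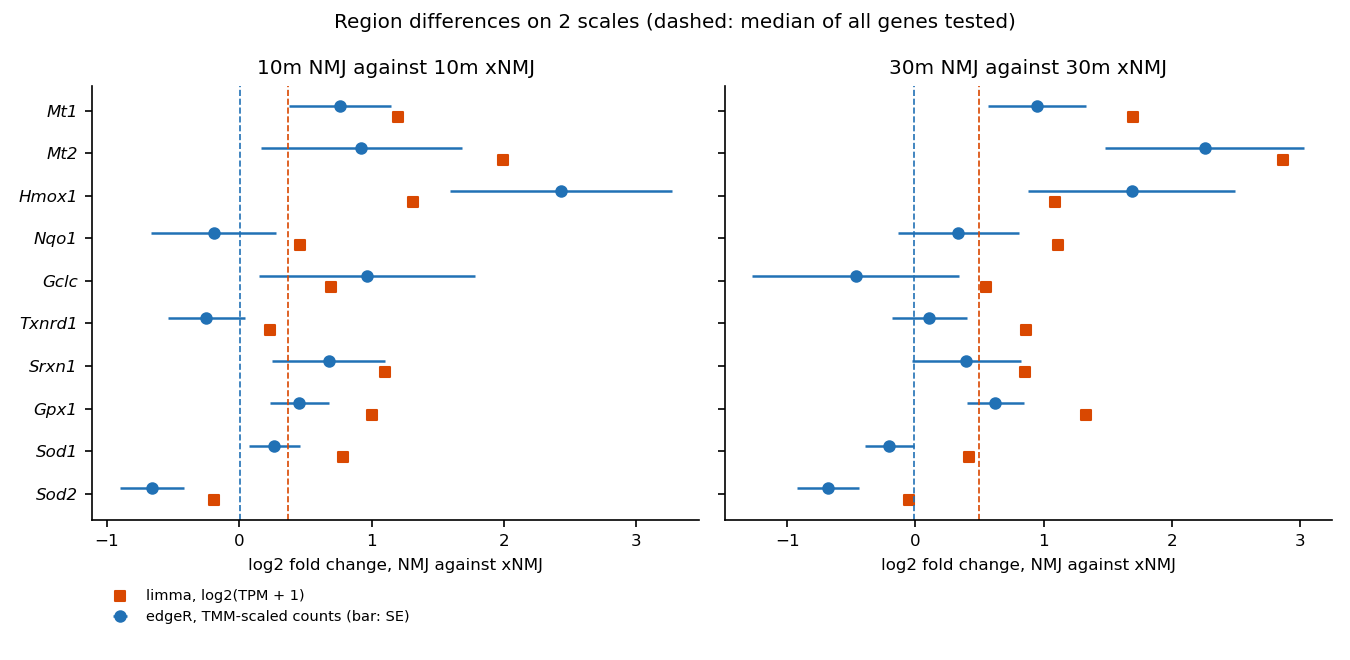
Circles are log2 fold changes of NMJ against xNMJ on the x axis from edgeR on TMM-scaled counts with bars of 1 SE, squares the same differences of log2(TPM + 1), and dashed lines the medians of all genes tested on either scale. Mt1, Mt2, Hmox1 and Gpx1 lie to the right of both lines at both ages and Sod2 to the left of both.

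Ages were then compared within each region. At the NMJ none of the 10 genes passed in edgeR, DESeq2 or limma, against 0% of all genes tested in edgeR and DESeq2 and 0.0214% in limma on TPM. Of the log2 fold changes 5 were above 0, against 52.1% of all genes, and without overlap 0.00715% of all genes were higher and as many lower, but none of the 10. At an unadjusted p under 0.05 there was 1 of the 10, Mt2, and 2.66% of all genes. Mt2 had a log2 fold change of 2.50 ± 0.78 for 30m against 10m NMJ, with an unadjusted p of 0.0028 that ranked 28 among 13990 genes and an adjusted p of 0.9998 in edgeR. The adjusted p lay between 0.17 and 1.0 over 10 alternatives. Of the 8 libraries of 30m NMJ, 6 exceeded the highest of 10m NMJ (13.2 CPM) and 7 its median. Mt1 had a log2 fold change of 0.62 ± 0.38, or 0.35 without 30m NMJ replicate 4, with 1 old library above all young ones. The other 8 genes had log2 fold changes between −0.48 (Gclc, but 0.078 in TPM) and 0.20 (Gpx1), of which the smallest unadjusted p was 0.23 (Sod1).

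In xNMJ regions edgeR called none of the 10 genes with age, against 0.0429% of all genes tested (0.0357% higher and 0.00715% lower at 30 months), and none had an unadjusted p under 0.05, against 9.45% of all genes. DESeq2 and limma called none of the 10 either, against 0.612% and 0% of all genes. Of the log2 fold changes 7 were above 0, against 53.2% of all genes. Txnrd1 had the smallest p of the 10, with a log2 fold change of −0.56 ± 0.29 (unadjusted p = 0.061 and adjusted p = 0.56 in edgeR), its median CPM being 53.8 in the younger and 30.4 in the older group. Mt2 had a log2 fold change of 1.16 ± 0.77 (adjusted p = 0.70), or 1.96 without 10m xNMJ replicate 4, and 7 of 8 libraries of 30m xNMJ lay above the 10m xNMJ median. Mt1, Hmox1, Gclc, Srxn1, Gpx1 and Sod1 also had log2 fold changes above 0, from 0.03 to 0.95, the highest being that of Gclc, which was 0.075 without 30m xNMJ replicate 6. That of Gpx1 turned to −0.07 in TPM.

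The test of whether the regional difference changed with age, the interaction, called 0 of the 10 genes in edgeR, against 0% of all genes tested. None of the 10 had an unadjusted p under 0.05 there, against 5.06% of all genes, and DESeq2 and limma called none of them, against 0.0759% and 0% of all genes. Of the 10 values 5 were above 0, against 48.9% of all genes. Sod1 had the smallest p, with a change of −0.47 ± 0.27 in log2 fold change (unadjusted p = 0.095 in edgeR). For Mt2 the change was 1.34 ± 1.06, or 0.54 without 10m xNMJ replicate 4. The values of Mt2 for age are thus not shown to differ between NMJ and xNMJ regions.

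Neighboring genes on chromosome 8, Mt1 and Mt2 share no stretch of 31 bases with each other or with any other protein-coding gene, so a read of that length fits only one of them. The exons of Mt2 overlap those of the antisense gene Gm45774, which is not protein-coding. Within groups, log2 CPM of Mt1 and Mt2 did not track each other closely over 8 libraries. Pearson's r was 0.28 in 10m xNMJ and −0.16 in 30m xNMJ, with Spearman's rho of 0.24 and 0.10, and r was 0.42 in 10m NMJ and 0.60 in 30m NMJ, with rho of 0.43 and 0.60. The smallest p of the 8 exact two-sided permutation tests was 0.12, for r in 30m NMJ, and the smallest adjusted p was 0.53. Without the 2 libraries farthest from the median of Mt1 r was −0.15 and −0.32 in the xNMJ groups and 0.45 and 0.56 in the NMJ groups, younger first.

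**Figure D3:**
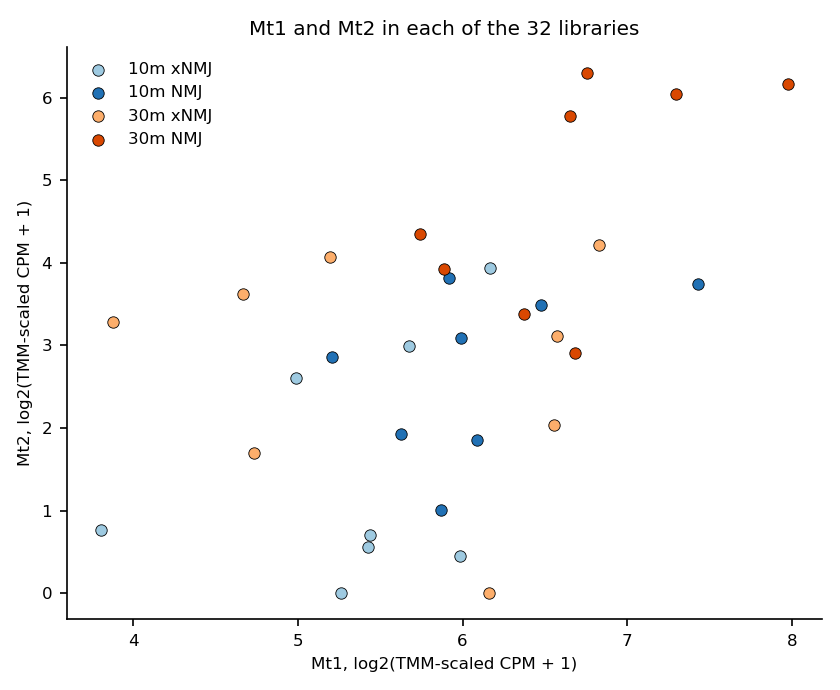
Each point is 1 of the 32 libraries, with log2 of TMM-scaled CPM plus 1 of Mt1 on the x axis and of Mt2 on the y axis, colored by group. In 4 libraries of 30m NMJ both genes are high, with Mt2 at 53.8 to 77.9 CPM, and 1 library each of 10m xNMJ and 30m xNMJ has no Mt2 count at all.

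By deviation from the group means of log2 CPM over 32 libraries, the genes most like Mt1 were 4930458D05Rik (r = 0.68), Sar1a (0.66), Rpl10 (0.63), Plin4 (0.63) and Dusp7 (0.63), and Mt2 came only at rank 2867 with r = 0.18. Those most like Mt2 were Tubb5 (r = 0.71), Mms19 (0.70), Chmp7 (0.69), Nhp2 (0.69) and Snrnp40 (0.67). These values describe points that share a library and its depth, and are the largest of 13990. Among the 10 genes themselves, the highest r was between Mt2 and Sod1 (0.46) and the lowest between Txnrd1 and Sod2 (−0.40).

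Around these 10 genes stand the rest of their pathways, for which 8 lists were drawn up. They hold 81 tested genes outside the 10. Of these, 6 were higher and 5 lower at the NMJ at 10 months (13.6% together, against 11.5% of all genes tested, of which 6.5% higher and 5.05% lower), and again 6 higher and 5 lower at 30 months (13.6%, against 9.26%, of which 5% higher and 4.25% lower). Their median log2 fold change was −0.01 and −0.05. None passed with age at the NMJ, with age in xNMJ or in the interaction, where 2, 7 and 4 of the 81 had an unadjusted p under 0.05 in edgeR, against 2.66%, 9.45% and 5.06% of all genes tested.

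The clearest difference within the metallothionein family was in Mt3, the isoform first known as a growth inhibitory factor of the brain. In 10m xNMJ, 7 of 8 libraries had no Mt3 count and the other had 1 count, whereas all 8 libraries of 10m NMJ held 5.69 to 15.8 CPM, with a median of 11.7. The 1168 counts against 1 gave a ratio of 489.2 after scaling, with an exact 95% counting interval of 87.6 to 19340, which leaves out the spread between libraries. In 30m xNMJ, 5 libraries were at 0 and the highest, replicate 5 and replicate 1, at 3.19 and 2.26 CPM. In 30m NMJ they ranged from 4.98 to 20.8 CPM around a median of 14.5. The 1348 counts against 49 at 30 months gave a ratio of 12.3, with a 95% counting interval of 9.25 to 16.7. Of the 49 counts, 36 came from 30m xNMJ replicate 5, the library that stood apart in synaptic genes, and 11 from replicate 1. The ratio thus rests largely on 1 library, and its interval also leaves out the spread between libraries. The groups did not overlap at either age, as for 2.22% and 1.96% of all genes in this direction. The adjusted p was 6.31e-07 at 10 months and 2.65e-04 at 30 months in edgeR, where the log2 fold change was 4.04 ± 0.73, and 5.03 without 30m xNMJ replicate 5. At 10 months the fitted value of 8.24 ± 1.03 depends on the prior count.

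Of the other 6 tested genes of the metallothionein and zinc list, Slc39a1, a zinc importer of the cell membrane, was lower at the NMJ at both ages, with log2 fold changes of −1.95 ± 0.45 (adjusted p = 0.0032, edgeR) and −1.86 ± 0.45 (adjusted p = 0.0055). It varied widely, from 575.3 to 6918 CPM in 30m xNMJ and from 197.9 to 1588 CPM in 30m NMJ, and did not pass at 30 months in TPM or with library totals (adjusted p = 0.10 and 0.052) or at 10 months with insert size as a covariate. Mtf1, Slc30a1, Slc30a5, Slc39a10 and Slc39a14 passed in neither comparison, Slc30a10 was not tested for low counts, and Mt4 was not analysed here.

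Of the 4 other genes of superoxide and peroxide handling, Sod3, the secreted superoxide dismutase of the extracellular matrix, was higher at the NMJ at both ages. Its lowest, median and highest values were 0, 0.677 and 2.84 CPM in 10m xNMJ and 6.36, 11.99 and 16.3 CPM in 10m NMJ. At 30 months they were 0.178, 1.08 and 3.19 CPM in xNMJ and 5.53, 7.76 and 17.99 CPM in NMJ. The groups did not overlap at either age. For Sod3 the log2 fold change was 3.47 ± 0.58 at 10 months (adjusted p = 6.10e-05, edgeR) and 2.76 ± 0.55 at 30 months (adjusted p = 9.07e-04). Cat, Ccs and Park7 did not pass.

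**Figure D4:**
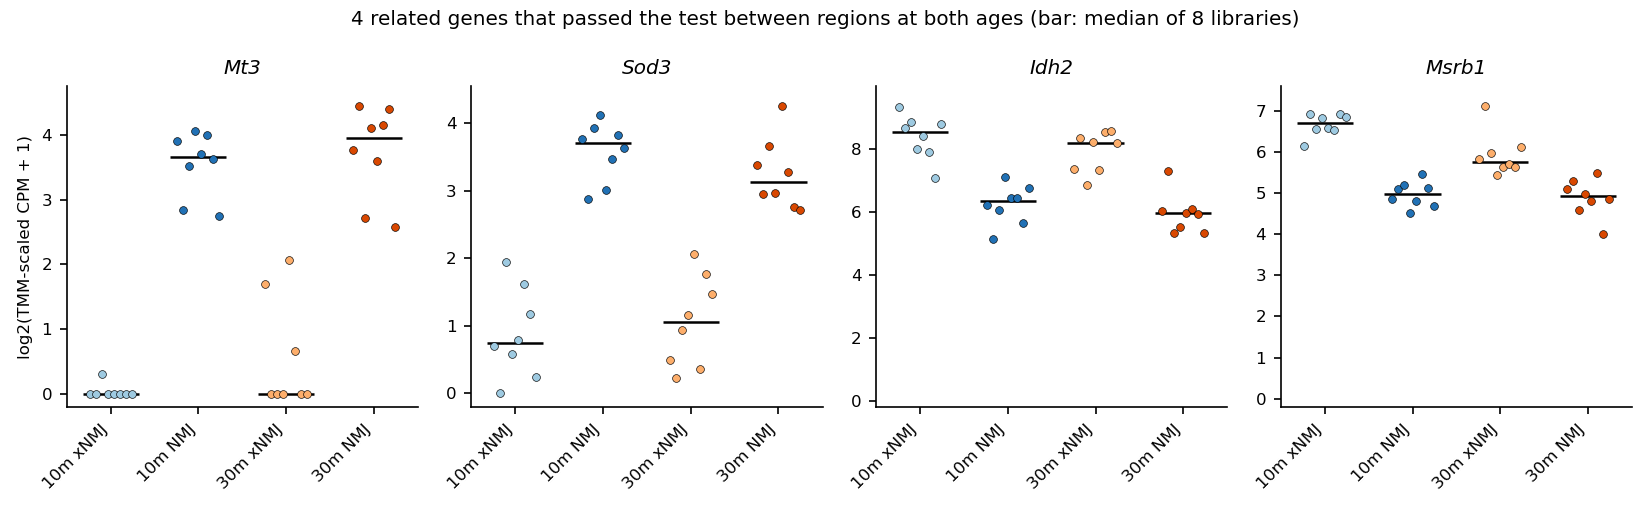
Each point is 1 library, on the y axis as log2 of TMM-scaled CPM plus 1, and each bar is the median of the 8 libraries of a group on the x axis. Mt3 and Sod3 are higher at the NMJ and Idh2 and Msrb1 lower, and the groups of Mt3 and Sod3 do not overlap at either age.

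Of 20 tested genes of glutathione synthesis and use, 3 rose at the NMJ at 10 months, the glutathione transferases Gstt1 (log2 fold change 3.12 ± 0.81, adjusted p = 0.0079, edgeR) and Gstm1 (1.10 ± 0.31, adjusted p = 0.016) and the endoplasmic reticulum peroxidase Gpx8 (3.15 ± 0.94, adjusted p = 0.022). At 30 months only Gstm1 passed among them, at 1.02 ± 0.31 (adjusted p = 0.032), and without 30m NMJ replicate 5, its highest library, the value was 0.70 (adjusted p = 0.14). The call at 30 months was lost in 6 of 32 fits with a library left out (30m xNMJ replicates 2, 3, 6 and 7 and 30m NMJ replicates 5 and 8), with insert size as a covariate (adjusted p = 0.054) and with only the compared groups (adjusted p = 0.083). At 10 months it did not pass without 10m NMJ replicate 4 (adjusted p = 0.060). Gpx8 did not pass at 10 months with insert size as a covariate (adjusted p = 0.058). Reads of Gstm1 may also fit related transferase genes, and its counts are uncertain in that respect. None of the list passed as lower at the NMJ at either age.

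Of 14 tested thioredoxin and peroxiredoxin genes, Msrb1, a selenoprotein that reduces oxidized methionine, was lower at the NMJ, with 21.8 to 42.9 CPM in 10m NMJ against 69.7 to 120.1 CPM in 10m xNMJ. Its log2 fold change was −1.72 ± 0.22 at 10 months (adjusted p = 1.27e-06, edgeR), with no overlap, and −1.11 ± 0.22 at 30 months (adjusted p = 8.10e-04). In TPM the value at 30 months was −0.46 (adjusted p = 0.12, the highest over the alternatives being 0.15). The other 13 did not pass.

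Of the 9 tested identifiers for NADPH supply, of which Nnt has 2, Idh2, the mitochondrial isocitrate dehydrogenase, was lower at the NMJ at both ages. It lay at 135.2 to 648.7 CPM in 10m xNMJ and 34.3 to 136.5 CPM in 10m NMJ. The values were −2.19 ± 0.32 (adjusted p = 9.18e-06, edgeR) and −1.98 ± 0.32 (adjusted p = 5.53e-05) on the log2 scale. Of 8 heme and iron genes, Ftl1, the ferritin light chain, was higher at the NMJ, by 1.17 ± 0.32 (adjusted p = 0.012) and 1.35 ± 0.32 (adjusted p = 0.0048) on the log2 scale. Of 8 NRF2 regulators, Mafg, a small MAF partner of NRF2, passed at 30 months, at 0.97 ± 0.24 (adjusted p = 0.0069). Nfe2l2, which encodes NRF2, and Keap1, its inhibitor, did not pass.

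Glucocorticoid-responsive genes were listed because metallothionein genes respond to these hormones. Of the 11 tested, 3 had log2 fold changes above 0 at 10 months and 4 at 30 months on TMM-scaled counts, against 50.2% and 49.3% of all genes. Sgk1, a kinase induced by glucocorticoids, was lower at the NMJ at both ages, by −1.21 ± 0.24 (adjusted p = 5.65e-04, edgeR) and −1.70 ± 0.24 (adjusted p = 8.60e-06) on the log2 scale, but with library totals Sgk1 did not pass at 10 months (−0.66, adjusted p = 0.057). Over the 9 alternatives that kept every library of both groups, its adjusted p at 10 months ranged from 3.62e-05 to 0.057. Klf9, a transcription factor, had −0.79 ± 0.17 (adjusted p = 0.0011) and −0.64 ± 0.17 (adjusted p = 0.0094), but neither value passed in TPM or with library totals, and with totals the latter was 0.0052. Fkbp5, a co-chaperone of the glucocorticoid receptor, was higher at 30 months, by 1.895 ± 0.44 (adjusted p = 0.0034), with no overlap between 5.37 to 18.5 CPM in xNMJ and 21.7 to 62.8 CPM in NMJ. The 3 genes of this list that passed at 30 months thus had both directions.

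**Figure D5:**
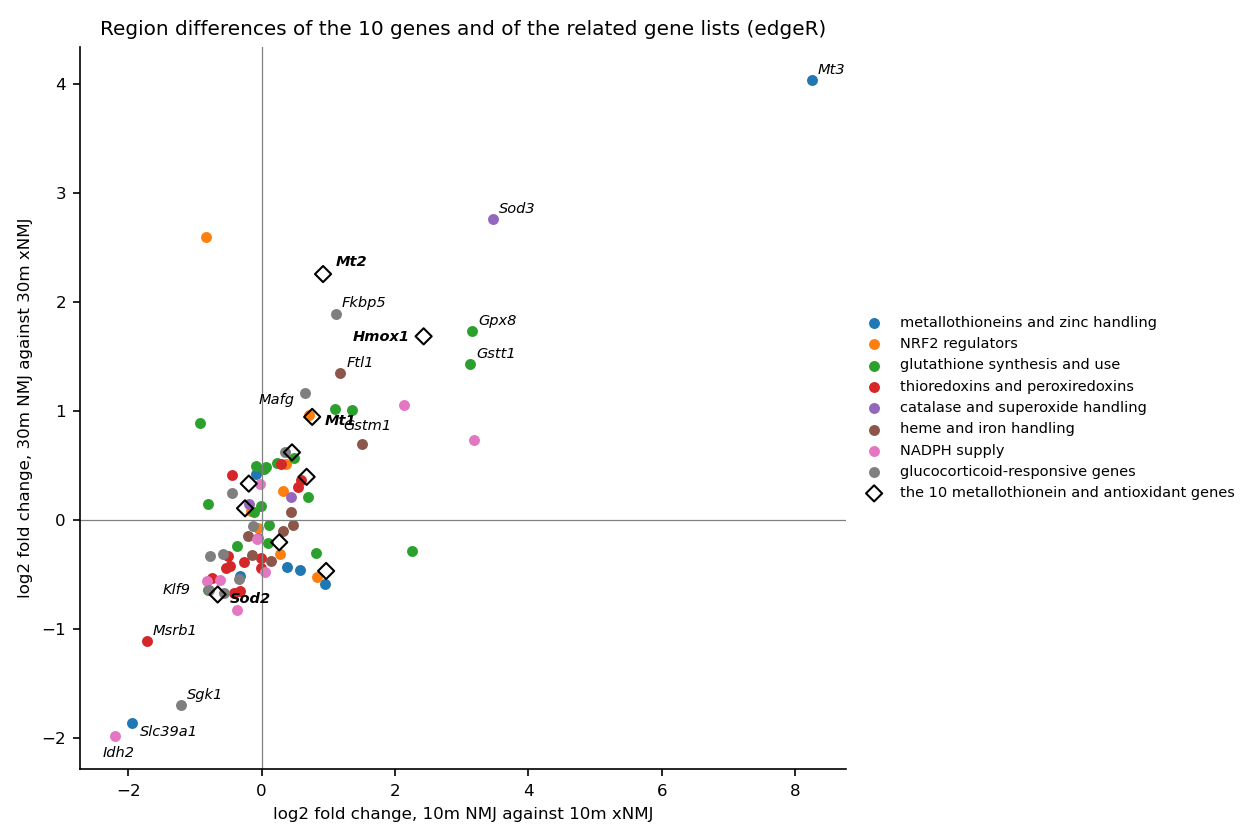
Log2 fold changes of NMJ against xNMJ in edgeR at 10 months (x axis) and 30 months (y axis), with filled points for the tested genes of the 8 related lists and diamonds for the 10 metallothionein and antioxidant genes. Named filled points passed an adjusted p of 0.05 at one age or both. Mt3 at 8.24 and 4.04 and Sod3 at 3.47 and 2.76 lie farthest up and to the right, and Idh2 at −2.19 and −1.98 at the lower left.

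Markers of other cells moved with region as well. Macrophage genes, led by Lyz2, summed to medians of 13.6 and 18.1 TPM in 10m and 30m xNMJ and 275.5 and 289.8 TPM in the NMJ groups, and 5 of 9 passed as higher at each age, among them Lyz2, Mrc1, Cd68 and C1qb at 10 months and Adgre1, Lyz2, Mrc1 and C1qc at 30 months. Adgre1 was at 0 in 30m xNMJ, and its mean in 30m NMJ was at least 12.6-fold higher than the floor of 3 counts per library. Fibroblast genes, led by Dcn, summed to 73.0 and 94.1 TPM in xNMJ and 812.0 and 776.3 TPM in NMJ, with 5 and 4 of 7 higher, among them Dcn, Lum, Col1a2 and Pdgfra. Of the Schwann cell genes, S100b and Sox10 were higher at the NMJ at both ages. Their log2 fold changes were 7.32 ± 0.85 and 5.58 ± 0.81 at 10 months (adjusted p = 1.85e-07 and 8.32e-06, edgeR). At 30 months they were 4.94 ± 0.73 and 6.00 ± 0.83 (adjusted p = 1.61e-05 and 5.80e-06, edgeR), and that of S100b was 6.59 without 30m xNMJ replicate 5.

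Mast cell genes, led by Cma1, summed to 0.166 and 0.415 TPM in xNMJ and 36.3 and 61.5 TPM in NMJ, with 4 of 5 higher at each age (Cma1, Mcpt4, Cpa3 and Tpsb2). Cpa3 and Fcer1a were at 0 in 10m xNMJ, and Cpa3, Cma1 and Tpsb2 in 30m xNMJ, where the means in 30m NMJ were at least 5.90-, 39.9- and 15.04-fold higher than the floor. Endothelial genes, led by Cdh5, summed to medians between 23.7 and 36.4 TPM in the 4 groups, and Cdh5 was lower at the NMJ at 30 months on TMM-scaled counts (log2 fold change −1.29 ± 0.34, adjusted p = 0.0094, edgeR) but did not pass in TPM (−0.63, adjusted p = 0.23) or with library totals (adjusted p = 0.16). Of 6 smooth muscle and pericyte genes, led by Rgs5, Cspg4 was higher at both ages (1.92 ± 0.56 and 1.79 ± 0.56). At 30 months its adjusted p was 0.036, and 0.058 without the 2 libraries named above. The call of Cspg4 was lost in 1 of 32 fits with a library left out at 10 months and in 9 at 30 months. At 30 months 8 of 10 alternatives called it. Rgs5 was lower at 30 months (−0.83 ± 0.26, adjusted p = 0.034), but not in 7 of 32 fits with a library left out. Further, 5 of 10 alternatives did not call Rgs5, among them TPM (−0.16, adjusted p = 0.68, the highest over the alternatives). Red cell genes, led by Hba-a2, passed in no comparison, with the smallest p for Hba-a1 and Hba-a2 in 30m against 10m xNMJ (1.58 ± 0.48 and 1.51 ± 0.46, adjusted p = 0.26 and 0.28), and Slc4a1 was at 0 in 10m NMJ. Of the 8 muscle fiber genes, 5 were lower at the NMJ at either age on TMM-scaled counts, among them Tnnt3 (−0.92 ± 0.17 and −1.01 ± 0.17), and none of those 5 passed with library totals. Of 9 synaptic genes 8 were higher, among them Chrna1, Prkar1a, Chrnd and Ache, and Etv5 was higher in 30m than in 10m xNMJ (adjusted p = 0.031), but not without the 2 libraries named above (adjusted p = 0.12). The part of any of these cells in the regional values of Hmox1, Mt1, Mt2, Mt3, Sod3 and Ftl1 was not tested.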

How the data were processed

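Read counts and TPM were those deposited by the authors. They trimmed single-end reads of SMART-Seq v4 libraries with Cutadapt 1.9.1, pseudoaligned them with kallisto 0.43.1 to protein-coding transcripts of Ensembl 92 (GRCm38), gave each of n matching transcripts 1/n of a read and summed transcripts per gene. The deposited counts are whole numbers without normalization, and the TPM, also deposited, take account of transcript length and depth. Per the labels, read direction was random, so reads of antisense partners cannot be told apart.

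Counts were tested in edgeR 4.0.16 (R 4.3.3) with TMM factors and a quasi-likelihood fit of the 4 groups, on genes with at least 1 CPM in at least 8 libraries. Two-sided p-values were adjusted over 13990 genes (Benjamini-Hochberg), with a threshold of 0.05. CPM are TMM-scaled throughout. Alternatives were DESeq2 1.42.0 and its size factors, no filter, only the compared groups, a replicate block, insert size as covariate, limma 3.58.1 on log2(TPM + 1) and log2(TPM + 0.1), each library left out and, added after the data had been seen, library totals without TMM factors and leaving out 2 libraries that stood apart. The steps were tested on simulated data.

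Replicate numbers were not taken as pairs of 1 mouse. All 10 genes were named in every comparison. Of each list, up to 4 genes past the threshold per comparison were named, of a list with none up to 2 with the smallest p, and of cell type lists the most abundant gene and genes at 0. For Mt1 and Mt2 the 5 genes with the highest r were named. Genes of a list named as not passing fall outside this rule and were chosen after their values were seen. The 10 genes and the lists were chosen with earlier results of these data known. Intervals and floors cover counting error only, since the reads carry no molecular identifiers. Some results for the Schwann cell list are not reported here.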

Additional observations from a re-analysis of the deposited data

Results flagged for a closer look

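In 40 groups of 8 libraries (10 genes in 4 groups), both the highest and the lowest library were examined by Dixon's criterion. For normally distributed values, chance meets it at one end or the other in about 1 in 20 groups. It was applied to CPM without a log transformation, so the rate by chance is not known here. A library stood apart in 5 groups, each time the highest. Mt1 reached 171.1 CPM in 10m NMJ replicate 4, and the next library was at 88.0 CPM. Nqo1 reached 28.9 CPM in 10m NMJ replicate 3, with the next at 17.6 CPM. Gclc reached 37.0 CPM in 30m xNMJ replicate 6, with the next at 13.1 CPM. Sod1 reached 461.8 CPM in 10m xNMJ replicate 4, with the next at 296.7 CPM. Sod2 reached 594.6 CPM in 30m xNMJ replicate 2, with the next at 331.0 CPM. That library also had the highest Gpx1 value of its group (166.2 CPM), the fewest detected genes of all 32 libraries (13159) and 29580 TPM of red cell genes, against a group median of 7834, and the part of these in its Sod2 value was not tested.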

How the results depend on the processing

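In edgeR, 0 of the 10 genes passed in each comparison. For 10m and 30m NMJ against xNMJ the number was 1 and 1 in DESeq2, against 14.6% and 12.2% of all genes tested. With only the compared groups it was also 1 and 1 (11.3% and 8.2% of all genes). It was 5 and 6 on log2(TPM + 1) (20.9% and 25.5%) and 4 and 6 on log2(TPM + 0.1) (21.5% and 26.3%). With library totals it was 5 and 3 (20.6% and 19.8%). It was 0 with DESeq2 size factors (11.4% and 9.22%), no filter (6.78% and 5.05%) and insert size (8.11% and 8.8%). It was also 0 with both libraries that stood apart left out (11.3% and 10.5%). With single libraries left out it ran from 0 to 2 at both ages. Of all genes tested, 10.2% to 12.2% passed in those fits at 10 months and 7.93% to 10.6% at 30 months. The number of the 10 genes stayed 0 under every alternative for the ages and the interaction, against at most 0.612% of all genes. Of 490 values of the 10 genes under alternatives, 418 kept direction and side of the threshold, 37 passed newly with the same sign and 35 changed sign, of which 2 (Sod1 at 30 months on both TPM scales) also passed. The cause was not tested. At most 3 counts were found for Hmox1 in 6 of 8 libraries of 10m xNMJ and 4 of 8 of 30m xNMJ. For Mt2 these numbers were 5 and 1, and for Gclc 1 and 3. Whether depth limited these values was not tested.

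Numbers were not taken as pairs, since the labels give no shared source and only 5 of 16 same-numbered pairs of NMJ and xNMJ libraries had a correlation of deviations over 0.1 (range −0.02 to 0.37). In 8 of 16 the best correlation was with the own number, which is a hint of pairing from the data, not the design. With the replicate block 2 genes (Hmox1 and Sod2) passed at 10 months and 4 (Mt1, Mt2, Gpx1 and Sod2) at 30 months, against 13.1% and 10.9% of all genes. At 10 months Gpx8 (adjusted p = 0.052) and Tpsb2 (adjusted p = 0.095) did not pass under the block. With it Nqo1 turned to 0.051 at 10 months and Gclc to 1.08 at 30 months, with age Gclc to 0.22 and Srxn1 to −0.022 at the NMJ and Gpx1 to −0.011 in xNMJ, and in the interaction Gclc to 0.60 and Sod2 to 0.0031.

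Log2 fold changes also changed sign on log2(TPM + 1), log2(TPM + 0.1) and library totals, in that order, for Nqo1 (0.46, 0.53, 0.40) and Txnrd1 (0.23, 0.25, 0.32) at 10 months, Gclc (0.55, 1.35, 0.16) and Sod1 (0.42, 0.42, 0.45) at 30 months, Gpx1 with age in xNMJ (−0.073, −0.074, −0.011) and Sod2 in the interaction (0.14, 0.14, 0.059). On the first 2 scales they did so for Gclc (0.078, 0.40) and Txnrd1 (0.057, 0.060) with age at the NMJ, on log2(TPM + 0.1) for Gclc in the interaction (0.30), and with totals for Klf9 at 30 months (0.0052) and Hmox1 with age at the NMJ (0.0001). Insert size turned Gclc to −0.19 at 10 months and Gpx1 with age in xNMJ to −0.019. Without both libraries that stood apart Gpx1 with age in xNMJ was −0.027 and Sod2 in the interaction 0.040.

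With single libraries left out, signs changed for Gclc (−0.65 to 0.41) and Txnrd1 (−0.043 to 0.36) at 30 months, for Nqo1 (−0.068 to 0.36), Hmox1 (−0.25 to 0.25) and Gclc (−0.67 to 0.0002) with age at the NMJ, for Gpx1 (−0.19 to 0.16) with age in xNMJ, and for Mt1 (−0.084 to 0.49) and Sod2 (−0.19 to 0.21) in the interaction.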

Other observations

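Mt1 had its highest value in replicate 4 in all 4 groups, at 70.7 and 112.7 CPM in the younger and older xNMJ groups and 171.1 and 250.3 CPM in the NMJ groups. Of 13990 genes tested, 37 (0.264%) had 1 replicate number highest in all 4 groups, and Mt1 was the only one of them with replicate 4, while 14 had replicate 1. This was noticed in the data and was not tested.

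By median TPM, 9 of the 10 genes were highest in an NMJ group and 8 of them in 30m NMJ, with Sod1 highest in 10m NMJ and Sod2 in 10m xNMJ. In TMM-scaled CPM these numbers were 7 and 5, and the order of the 4 groups was the same on both scales for 4 genes, Mt1, Hmox1, Srxn1 and Gpx1. On log2(TPM + 1) the median over all genes was itself higher at the NMJ, by 0.37 at 10 months and 0.49 at 30 months. The share of all genes highest in an NMJ group was not counted. These numbers are therefore not shown to be particular to the 10 genes.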
